A study of Mus musculus with 2 samples.

Results

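Of 18194 genes measured on expression arrays of the mouse hair follicle, 90 were glutathione transferases and related xenobiotic enzymes. They were chosen by name, with earlier results of these data known. Taken were probe sets assigned to a single gene symbol of the cytosolic and kappa glutathione transferases (Gst) or the microsomal glutathione transferases (Mgst). The UDP-glycosyltransferases (Ugt), the aldo-keto reductases of group 1 (Akr1) and the cytochromes P450 of families 1 to 3 (Cyp1, Cyp2, Cyp3) were taken likewise. The 90 genes were covered by 119 probe sets. The study set the bulge, the part of the outer root sheath where follicle stem cells reside, against the hairshaft. Both were cut by laser from eosin-stained frozen skin of C57Bl6 mice aged 21 days, with no treatment named for either. There was 1 array per structure, from 30 ng of amplified total RNA, so there is no spread between replicates to judge a difference by, and no test was possible.

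These enzymes handle foreign and reactive compounds in steps. Cytochromes P450 add oxygen to a compound, aldo-keto reductases reduce aldehydes, ketones and steroids, and transferases then couple the product to glutathione or glucuronic acid so that it can leave the cell. They are best known from the liver, but skin carries its own set, since it meets light, smoke and solvents directly, and several members also act on the body's own steroids, fatty acids and lipid peroxides. Many Gst genes are controlled through the antioxidant response element bound by the transcription factor Nrf2, and the Cyp1 genes through the dioxin response element bound by the aryl hydrocarbon receptor.

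The labelled structures carried mixed markers. Each of 7 bulge stem cell genes was 2-fold or more higher on the bulge array (Lhx2 at 9.23 against 4.67), but the 10 hair shaft keratins lay at 2.29 to 5.71 on the hairshaft array, where 4 of them were not above background, and 6 of the 10 were higher in the bulge array. Markers of other tissues moved with the array. All 10 skeletal muscle genes passed 8-fold on the bulge side, as did 7 of 8 adipocyte genes and 4 of the 6 sebaceous gland genes above background, and 5 of 8 endothelial genes. Summed over each list (log2 of the summed linear values), muscle read 17.50 on the bulge array against 6.51 on the hairshaft array, fat 15.79 and 7.68, sebaceous gland 14.41 and 12.25, and endothelium 9.99 and 5.90. The sebaceous receptor Mc5r was not above background on either array. On the hairshaft array 4 of 8 suprabasal epidermis genes and 3 of 7 fibroblast genes were 2-fold or more higher. The fibroblast gene Dpt was 3.62-fold higher in the bulge. Over all genes above background, 11.4% passed 2-fold and 3.02% 8-fold towards the bulge, and 4.91% passed 2-fold towards the hairshaft. The basal keratinocyte list stayed under 2-fold for all 5 genes; Krt5 and Krt14 read close to the upper end of the scale, where arrays can compress signal. The part of these tissues in the differences below was not tested. In such dissected tissue, fewer cells of a type and less RNA per cell cannot be told apart.

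All values are log2 GCRMA values, and differences are bulge minus hairshaft on that scale. Background was taken from 80 probe sets for olfactory and vomeronasal receptors, whose 95th percentile set a floor of 2.68 on each array. A value at or below the floor was raised to it, and such a fold is written "at least". Of the 90 member genes, 46 lay above the floor on at least 1 array, with 45 above it in the bulge array and 41 in the hairshaft array. A gene with a difference of 2-fold or more is said below to pass 2-fold towards the array where it was higher. Because a gene above the floor on only 1 array had to differ, counts are given beside those over the whole array. Past 2-fold towards the bulge were 21 member genes, 45.7% of those above the floor, where the background over 13329 genes was 11.4%. Past 2-fold towards the hairshaft were 3 member genes (6.52%), with a background of 4.91%. At 8-fold there were 12 genes towards the bulge and 0 towards the hairshaft, with backgrounds of 3.02% and 0.188%. The median difference was 0.52 over the 46 genes and 0.00 over all genes above the floor. Over all 90 members, whatever their level, the median was 0, and the same 21 genes made up 23.3%, against 8.39% of all 18194 genes.

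By family the counts were as follows. Of the 43 P450 genes, 18 were above the floor, of which 6 passed 2-fold towards the bulge and 1 towards the hairshaft; their median of -0.08 was 0.40 under a stricter floor, the 99th percentile of the receptors. Of the 14 aldo-keto reductases, 8 were above the floor and 5 of these passed towards the bulge; their median of 1.68 lay between 0.17 and 1.06 under 5 of the 9 other settings tried. The 20 Gst genes had 16 above the floor, 8 past 2-fold towards the bulge, 2 towards the hairshaft and a median of 1.13, which was 0.52 over all 20 genes without a floor. All 3 Mgst genes were above the floor, 2 of them past 2-fold towards the bulge. Of 10 Ugt genes only Ugt3a2 was, at 3.12 on both arrays.

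**Figure D1:**
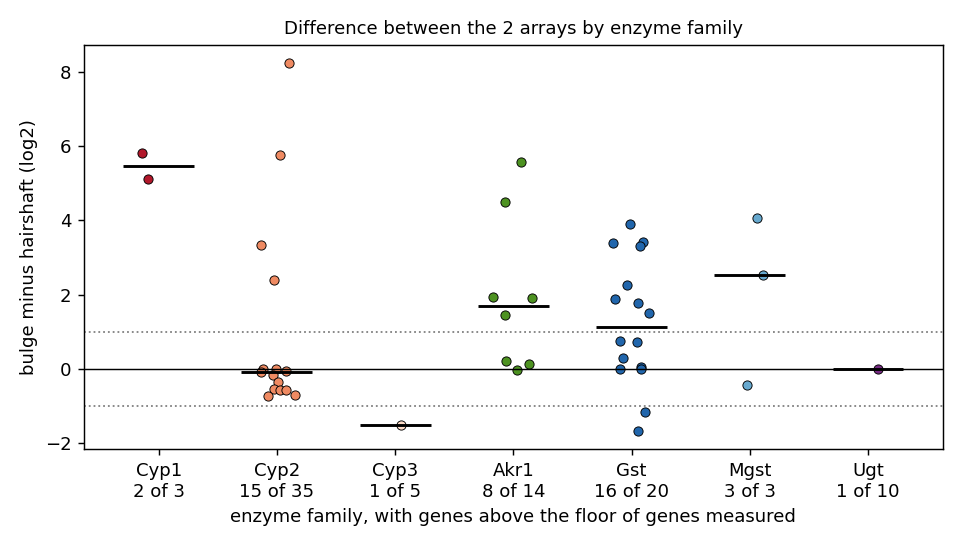
Difference between the arrays (bulge minus hairshaft, log2; vertical axis) for each member gene above the floor, by enzyme family on the horizontal axis. Points are genes, black bars are medians, and dotted lines mark 2-fold; a dim array was raised to the floor. The 2 Cyp1 genes lie above 5, the Cyp2 genes split into 4 above 2 and 11 between -1 and 1, and Cyp3a13 lies at -1.51.

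The promoter letters of 5 members with large differences are shown. Cyp1a1, Cyp1b1, Mgst1 and Gsta3 belong to classes with well-known control elements, and Cyp2e1 had the largest difference. Akr1c18 (5.57 in log2) and Akr1c14 (4.49) differed more than Mgst1 and Gsta3, held neither core described below and are not shown. Cyp2g1 (5.77) differed more than Cyp1b1, Mgst1 and Gsta3, but no promoter was listed for it, so it was not searched. Each run is the 250 bases before the RefSeq transcription start (GRCm38.p6), 5' to 3' on the gene's strand, with capitals for the dioxin response element core GCGTG or the antioxidant response element core TGACNNNGC on either strand. The windows are chr9:57697363-57697612 (plus strand) for Cyp1a1, chr17:79715062-79715311 (minus) for Cyp1b1, chr6:138140277-138140526 (plus) for the first of the listed starts of Mgst1, chr1:21240335-21240584 (plus) for Gsta3 and chr7:140763569-140763818 (plus) for Cyp2e1, the gene with the largest member difference, which held neither core.
Cyp1a1: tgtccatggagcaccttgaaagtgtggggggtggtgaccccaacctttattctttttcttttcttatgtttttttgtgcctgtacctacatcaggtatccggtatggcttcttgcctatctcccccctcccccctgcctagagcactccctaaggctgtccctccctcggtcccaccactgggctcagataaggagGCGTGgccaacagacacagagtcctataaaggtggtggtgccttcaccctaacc
Cyp1b1: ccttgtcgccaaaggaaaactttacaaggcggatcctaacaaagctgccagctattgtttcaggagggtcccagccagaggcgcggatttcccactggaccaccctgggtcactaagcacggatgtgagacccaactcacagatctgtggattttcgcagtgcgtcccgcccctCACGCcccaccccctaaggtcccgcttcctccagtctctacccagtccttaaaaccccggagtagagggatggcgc
Mgst1: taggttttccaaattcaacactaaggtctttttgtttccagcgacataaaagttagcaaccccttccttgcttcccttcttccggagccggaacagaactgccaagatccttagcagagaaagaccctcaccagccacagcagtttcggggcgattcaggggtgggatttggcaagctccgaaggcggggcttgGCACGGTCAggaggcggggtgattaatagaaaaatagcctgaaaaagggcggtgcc
Gsta3: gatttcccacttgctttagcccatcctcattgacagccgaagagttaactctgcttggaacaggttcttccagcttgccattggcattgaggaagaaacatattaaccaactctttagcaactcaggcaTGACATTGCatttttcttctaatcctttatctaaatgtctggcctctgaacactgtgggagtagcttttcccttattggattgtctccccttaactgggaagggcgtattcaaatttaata
Cyp2e1: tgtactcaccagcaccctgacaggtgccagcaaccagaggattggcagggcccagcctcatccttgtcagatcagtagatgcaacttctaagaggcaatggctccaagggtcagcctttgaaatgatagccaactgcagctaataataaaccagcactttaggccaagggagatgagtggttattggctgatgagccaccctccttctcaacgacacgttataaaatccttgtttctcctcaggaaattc
The capitals begin 54 bases before the start in Cyp1a1, 76 in Cyp1b1, 56 in Mgst1, whose other listed start had no core in its window, and 121 in Gsta3. The sequence table listed promoters for 78 of the 90 members. The dioxin core stood in 6 of 17 members that were higher in the bulge (35.3%), in 5 of 21 under 2-fold apart (23.8%), in 1 of 37 not above the floor (2.70%) and in 30.9% of 27025 genes with a promoter. It also stood in 1 of the 3 that were higher in the hairshaft. The antioxidant core stood in 3 of the 17 (Mgst1, Gsta3 and Akr1cl; 17.6%), in 1 of the 21, 1 of the 37 and 0 of the 3, and in 11.5% of all genes with a promoter. A match of letters in this window describes the sequence and not a bound site, and a window without one says nothing about the factor.

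Of the 3 genes for Cyp1 enzymes, which oxidise polycyclic hydrocarbons and estrogens, 2 were above the floor, and on the bulge array only. Cyp1a1 had 8.49 on the bulge array against 2.58 on the hairshaft array, where it was not above the floor, a difference of at least 56.2-fold. Cyp1b1 read 7.79 and 2.59 in the same order, at least 34.7-fold. Another Cyp1b1 probe set gave 6.52 and 2.46, a bounded log2 difference of 3.84, and the last was at background on both arrays. Both sizes depend on the processing: with the stricter floor the log2 differences became 4.28 for Cyp1a1 and 3.58 for Cyp1b1. An offset of 16 on the linear scale gave 4.07 and 3.41 in the same order. The probe-set mean of Cyp1b1 gave 2.84. Cyp1a2, the liver member of the family, was not above the floor on either array.

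Regulators of these genes were measured too. Of 9 dioxin and nuclear receptor genes above the floor, 0 passed 2-fold in either direction (median 0.07). With plain probe sets only, 1 did towards the bulge. For this list and those below, the backgrounds over all genes above the floor were 11.4% towards the bulge and 4.91% towards the hairshaft. The aryl hydrocarbon receptor Ahr had 10.79 on the bulge array against 11.29 on the hairshaft array. Its partner Arnt was 1.80-fold higher in the bulge, and Rxrg, a retinoid X receptor, 1.69-fold. Rxrb was 1.37-fold higher in the hairshaft. Other genes known to follow the aryl hydrocarbon receptor were mixed. The repressor Ahrr read 5.97 and 5.91, and Tiparp 7.51 and 7.95. Nqo1, a quinone reductase that Nrf2 also controls, had 4.70 on the bulge array against 3.12 on the hairshaft array, a log2 difference of 1.58. The aldehyde dehydrogenase Aldh3a1 had 10.72 and 8.24.

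The Cyp2 family held the largest single difference among the members, and also 11 genes under 2-fold apart. Cyp2e1, which oxidises ethanol and small solvents and is abundant in liver, had 11.00 on the bulge array against 2.76 on the hairshaft array, a 302-fold difference. The hairshaft value stands only just above the floor, and under the stricter floor the log2 difference was 6.78 in place of 8.24. Cyp2g1, a steroid-oxidising P450 known from the olfactory lining, had 11.86 and 6.10, a 54.5-fold difference. Cyp2f2, known from the airways for activating naphthalene, had 10.57 and 7.23, a 10.1-fold difference. Both of these were above the floor on both arrays and higher in the bulge. Cyp2d22 had 5.09 on the bulge array against 2.69 on the hairshaft array (5.27-fold), and its other probe set 4.12 and 2.86; under the stricter floor it did not reach 2-fold (log2 0.88).

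The other 11 Cyp2 genes above the floor were under 2-fold apart, and 9 of them read slightly higher in the hairshaft. Cyp2b19, a keratinocyte P450 that makes epoxides of arachidonic acid, had 9.26 on the bulge array against 9.33 on the hairshaft array. With a loess trend between the arrays removed its difference turned from -0.07 to 0.05. Cyp2b10, which drugs such as phenobarbital induce in liver, had 8.24 and 8.59, and its 3 probe sets lay between -0.39 and -0.23 in log2 difference. The epoxygenase Cyp2j6 had 8.78 and 9.51 (1.65-fold), and its other probe set gave -0.52. Cyp2j9 was 1.44-fold, Cyp2s1, a P450 of epithelia that meet the environment, 1.49-fold and Cyp2d40 1.47-fold higher in the hairshaft. Cyp2c68 had 2.48 and 3.38 and was the only member above the floor in the hairshaft array alone, by at least 1.63-fold. Cyp2r1, the vitamin D hydroxylase, had 3.60 and 3.77, and Cyp2c29 3.55 and 3.64. Cyp2d10 and Cyp2j11 were equal on both arrays to within 0.01.

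Only 1 Cyp3 gene was detected, and it went the other way. Cyp3a13, the member of the liver's main drug-oxidising family that is also found outside the liver, had 6.56 on the bulge array against 8.07 on the hairshaft array, a 2.85-fold difference. The other 4 Cyp3 genes, Cyp3a11, Cyp3a16, Cyp3a25 and Cyp3a44, stayed at background on both arrays. Of the 11 Cyp2c genes 9 were also at background, and of the 8 Cyp2d genes 5. The hepatocyte markers Tat and Ttr were at background as well, Apoc3 read 2.93 on both arrays, Apoa1 had 4.27 and 3.35 (1.89-fold higher in the bulge), and albumin (Alb) had 4.87 on the bulge array against 2.43 on the hairshaft array.

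**Figure D2:**
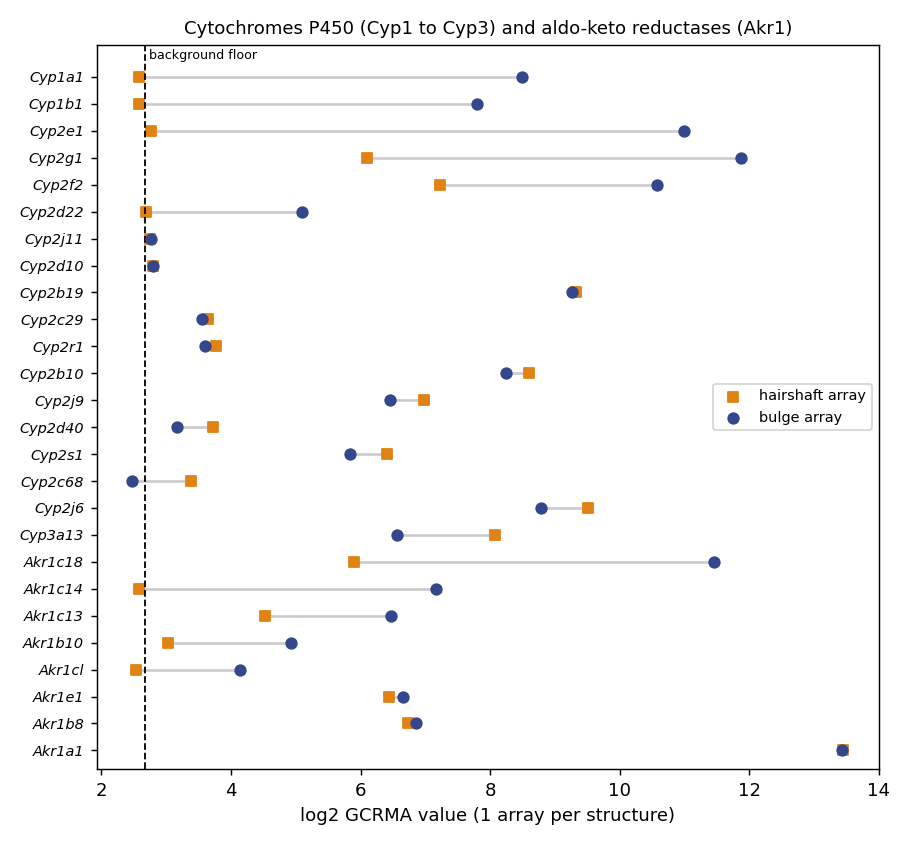
Both values of each P450 and aldo-keto reductase gene above the floor (log2 GCRMA value, horizontal axis). Circles are the bulge array and squares the hairshaft array, 1 array each, with the floor of 2.68 as a dashed line. Cyp1a1, Cyp1b1, Akr1c14 and Akr1cl lie below the floor in the hairshaft array, and the lower block of Cyp2 genes from Cyp2b19 to Cyp2j6 has the hairshaft value on the right.

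P450 enzymes need an electron supply, and epoxide hydrolases and flavin monooxygenases work beside them. Of 11 such genes above the floor, 4 passed 2-fold towards the bulge, 0 towards the hairshaft and 7 neither way (median 0.75). The share towards the bulge was 36.4%, with a background of 11.4%. Ephx2, the soluble epoxide hydrolase that opens fatty acid epoxides, had 7.52 on the bulge array against 4.10 on the hairshaft array (10.7-fold). The flavin monooxygenase Fmo1 was 6.55-fold, the cytochrome b5 of the outer mitochondrial membrane (Cyb5b) 4.44-fold and Fmo5 2.15-fold higher. With plain probe sets only, 2 of the list passed. The microsomal cytochrome b5 gene (Cyb5a), which is the usual partner of P450, read 11.87 and 11.66.

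Of the 5 aldo-keto reductases past 2-fold, 3 belonged to the steroid-converting Akr1c group on chromosome 13. Akr1cl, on chromosome 1, is described after them. Akr1c18, which inactivates progesterone, had 11.46 on the bulge array against 5.90 on the hairshaft array, a 47.3-fold difference with both values above the floor. Akr1c14, a hydroxysteroid dehydrogenase, had 7.16 and 2.58, at least 22.4-fold; its log2 difference of 4.49 was 2.95 under the stricter floor, 3.69 with the array median as floor and 2.83 with the offset of 16 on the linear scale. Akr1c13 had 6.47 and 4.52 (3.86-fold). These 3 lay on the bulge side with clear signal in the bulge array. Akr1cl had 4.13 and 2.53, at least 2.74-fold, but it fell short of 2-fold with the array median as floor, the probe-set mean or an offset of 16 on the linear scale (log2 0.51 to 0.66). The other 5 Akr1c genes, Akr1c6, Akr1c12, Akr1c19, Akr1c20 and Akr1c21, were not above the floor.

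Apart from the Akr1c genes and Akr1cl, 4 aldo-keto reductases were above the floor, and 3 of them were under 2-fold apart. Akr1a1, a broadly expressed aldehyde reductase, read 13.43 on the bulge array against 13.45 on the hairshaft array, near the top of the scale, and the log2 differences of its 4 probe sets ran from -0.05 to 0.20; with the loess trend removed the gene read 0.16 higher on the bulge array. Akr1b8 read 6.85 and 6.73, and Akr1e1 6.66 and 6.44, where a second Akr1e1 probe set pointed the other way (-0.42). Akr1b10 had 4.93 and 3.02 with its brightest probe set (3.75-fold), and 3.58 on both arrays with the next. It fell short of 2-fold under the stricter floor (log2 0.72), the probe-set mean (0.64) and the offset (0.94). Akr1d1, the steroid reductase of bile acid synthesis, was at background.

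Related genes that oxidise or reduce aldehydes, ketones and alcohols leaned to the same array. Of 15 above the floor, 4 passed 2-fold towards the bulge, 0 towards the hairshaft and 11 neither way (median 0.57). Those towards the bulge made up 26.7%, with a background of 11.4%. Aldh3a1, a detoxifying aldehyde dehydrogenase, was 5.60-fold and the retinaldehyde dehydrogenase Aldh1a1 5.02-fold higher. Aldh1a7 was 3.16-fold and the sugar reductase Dcxr 2.07-fold higher. Aldh1a1 and Aldh1a7 are close copies, and either probe set may read both.

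The 8 Gst genes past 2-fold towards the bulge belonged to the theta, zeta, alpha, mu and pi classes. In the theta class, whose enzymes act on small halogenated compounds, Gstt1 had 7.28 on the bulge array against 3.86 on the hairshaft array (10.7-fold; log2 2.49 with the offset). Gstt2 had 6.43 and 3.12 (9.94-fold), and its log2 difference of 3.31 was 2.22 under the stricter floor. Gstt3 read 7.09 and 6.79, under 2-fold, and Gstt4 was not above the floor. Gstz1, which also serves tyrosine breakdown as maleylacetoacetate isomerase, had 9.14 and 5.75 (10.5-fold). Gstt1, Gstt2 and Gstz1 were thus each about 10-fold apart, while Gstt3 was even.

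The alpha class was split. Gsta3, a transferase that also isomerises steroids, had 6.57 on the bulge array against 2.45 on the hairshaft array, at least 14.9-fold. Its log2 difference of 3.90 was 2.36 under the stricter floor, 2.12 for the probe-set mean and 2.31 with the offset. Its other probe set was dim, with 3.02 and 2.61. Gsta4, which conjugates the lipid peroxidation product hydroxynonenal, had 6.61 and 4.71 (3.72-fold). Gsta2, an Nrf2 target, went the other way with 8.75 and 9.92, so it was 2.25-fold higher in the hairshaft. Gsta2 and Gsta1 are nearly the same in sequence, and this probe set may read both.

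In the mu class only Gstm1 passed 2-fold. Gstm1, a main detoxifying transferase of many tissues, had 10.01 on the bulge array against 7.75 on the hairshaft array (4.79-fold), on a probe set marked as able to cross-hybridise. A plain probe set gave 9.63 and 7.53, a log2 difference of 2.10. Another plain probe set was at background, with 2.23 on both arrays, and a dim one gave 4.14 and 3.16. The probe-set mean gave a log2 difference of 1.34. Gstm2 had 9.14 and 8.38 and Gstm5 10.63 and 9.89, 1.69-fold and 1.66-fold higher in the bulge. Gstm4 at 4.29 and Gstm6 at 2.91 were equal on both arrays, and Gstm3 and Gstm7 were at background. Mu genes resemble one another, so single probe sets may not separate them.

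The pi class, abundant in epithelia, was higher in the bulge array. Gstp1 had 12.04 on the bulge array against 10.53 on the hairshaft array (2.84-fold), and a close copy of this gene may share its signal. Gstp3 had 4.93 and 3.17 (3.39-fold), which fell short of 2-fold under the stricter floor (log2 0.72) and the offset (0.90). The omega class had the reverse order. Gsto1, which reduces dehydroascorbate and mixed disulfides, had 8.63 on the bulge array against 10.29 on the hairshaft array (3.17-fold), and its plain probe set pointed the same way with 8.16 and 9.47. Gsto2 was not above the floor. Gstk1, a transferase of mitochondria and peroxisomes, read 8.19 and 8.14.

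Of the membrane-bound transferases, Mgst1 and Mgst3 were far apart and Mgst2 was not. Mgst1, which protects the membranes of mitochondria and the endoplasmic reticulum, had 12.86 on the bulge array against 8.79 on the hairshaft array, a 16.8-fold difference. Mgst3 had 10.27 and 7.74 (5.80-fold). Each has a second probe set that was at background on both arrays, so the probe-set mean gave log2 differences of 2.04 and 1.27 in place of 4.07 and 2.53. Mgst2, which can also make a leukotriene, read 6.79 and 7.23.

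**Figure D3:**
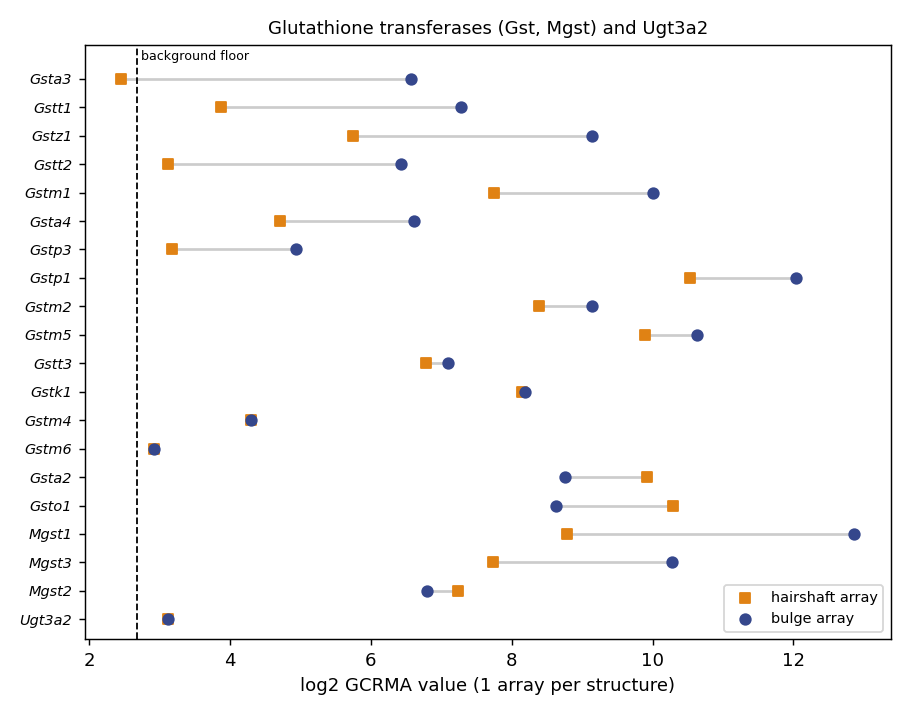
Both values of each glutathione transferase gene above the floor, and of Ugt3a2 (log2 GCRMA value, horizontal axis). Circles are the bulge array and squares the hairshaft array, 1 array each, with the floor of 2.68 as a dashed line. Gsta2, Gsto1 and Mgst2 have the hairshaft value on the right; Gstm4, Gstm6 and Ugt3a2 coincide.

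Most genes for the supply of glutathione itself were under 2-fold apart. Of 17 genes above the floor for glutathione synthesis, recycling and peroxidases, 3 passed 2-fold towards the bulge (17.6%, with a background of 11.4%). The hairshaft side had 2 (11.8%, background 4.91%), and 12 passed neither way (median 0.30). The catalytic subunit of the rate-limiting ligase, Gclc, read 8.39 and 8.09, and its modifier Gclm was 2.04-fold higher in the bulge. Gpx3, the secreted peroxidase, had 9.60 on the bulge array against 2.60 on the hairshaft array, at least 122-fold, and Gpx4, which repairs lipid peroxides in membranes, was 3.56-fold higher. Ggct, an enzyme of glutathione breakdown, was 2.44-fold and the peroxidase Gpx7 2.09-fold higher in the hairshaft. The glutamate-cystine exchanger Slc7a11 was at background.

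Nrf2 regulators and targets were nearly level. Of 18 genes, 1 passed 2-fold towards the bulge (Nqo1), 0 towards the hairshaft and 17 neither way (median 0.15). That share towards the bulge, 5.56%, lay below the background of 11.4%. Nrf2 itself (Nfe2l2) read 9.74 on the bulge array against 9.63 on the hairshaft array, and its inhibitor Keap1 7.97 and 8.13. Mafg, a partner of Nrf2, was 1.97-fold and heme oxygenase Hmox1 1.87-fold higher in the hairshaft, and the ferritin chain Fth1 1.70-fold higher in the bulge. Under the stricter floor, and with the offset, Nqo1 fell short of 2-fold too.

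Glucuronidation could be described only in part. The 8 Ugt2 genes were at background on both arrays, as was Ugt3a1 of another Ugt family. The 3 probe sets of the Ugt1 locus are each shared by several of its genes and so belong to no member. The 4 genes that supply or remove glucuronic acid were under 2-fold apart (median 0.38), but 1 of the list passed towards the bulge with the probe-set mean, plain probe sets only or the loess trend removed. By the brightest probe sets Ugp2 was 1.92-fold and the UDP-glucose dehydrogenase Ugdh 1.69-fold higher in the bulge. Gusb and Slc35d1 read nearly the same on both arrays. Of 9 sulfo-, methyl- and acetyltransferase genes above the floor, 3 passed 2-fold towards the bulge, or 1 with plain probe sets only. These 3 made up 33.3%, with a background of 11.4%, and 0 passed towards the hairshaft (median 0.58). The 3 genes were the nicotinamide methyltransferase Nnmt at 4.62-fold, the phenol sulfotransferase Sult1a1 at 3.61-fold and Papss2, which makes the sulfate donor, at 2.97-fold. Nat2 was 1.61-fold higher in the hairshaft.

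Efflux pumps, of which some export the conjugates, were divided. Of 8 above the floor, 4 passed 2-fold towards the bulge (50%, with a background of 11.4%), 0 towards the hairshaft and 4 neither way. The median of 0.71 was 0.08 over all 10 genes without a floor. The phospholipid pump Abcb4 was 7.05-fold, Abcb1a 3.15-fold, Abcg2, known as a side population marker of stem cells, 3.12-fold and Abcc3 2.40-fold higher in the bulge. Abcc1, an exporter of glutathione conjugates, read 10.39 and 10.64. Abcc5 was 1.81-fold and Abcc4 1.53-fold higher in the hairshaft. Under the stricter floor, and with the offset, 2 genes of this list passed.

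**Figure D4:**
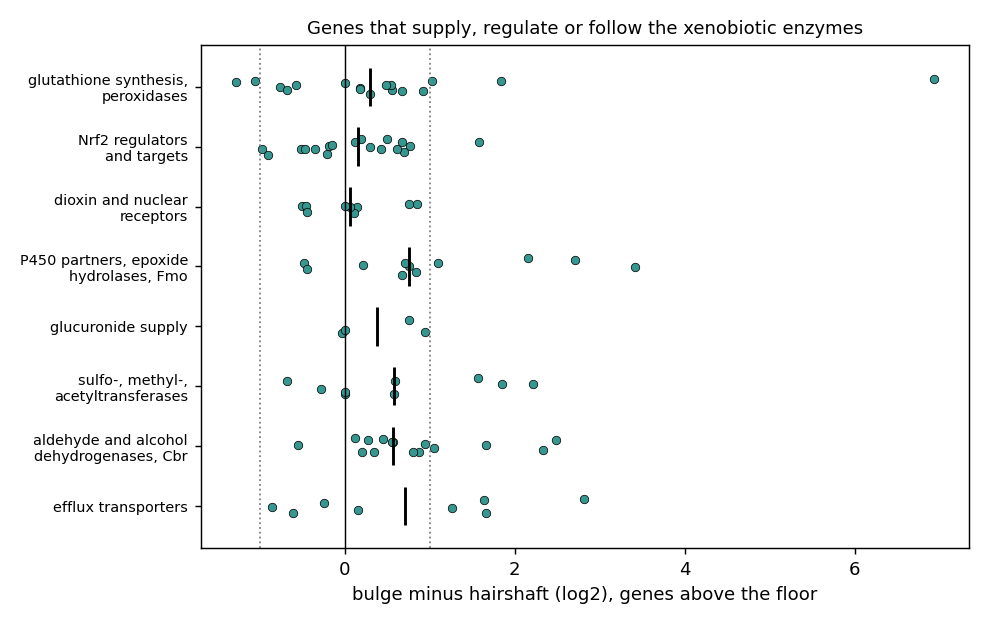
Difference between the arrays (bulge minus hairshaft, log2; horizontal axis) for the genes above the floor in 8 lists of genes that supply, regulate or accompany the member enzymes. Points are genes, black bars list medians and dotted lines 2-fold. The list medians run from 0.07 for the receptors to 0.75 for the P450 partners, and the point at 6.93 is Gpx3.

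Members adjacent in gene order did not all read alike. In RefSeq order on chromosome 13, members only, Akr1c14, Akr1c18 and Akr1c13 were all higher in the bulge, the next 5 (Akr1c19, Akr1c12, Akr1c6, Akr1c20 and Akr1c21) were at background, and Akr1e1 was under 2-fold apart. On chromosome 10 the order is Gstt3, Gstt1, Gstt4 and Gstt2, so the genes near 10-fold are each next to one that was even or at background. By position along chromosome 7, not as a cluster, the members run Cyp2s1, Cyp2b10, Cyp2b13, Cyp2b9, Cyp2b19, Cyp2g1, Cyp2a12, Cyp2f2, Cyp2r1 and Cyp2e1. Of these 10, Cyp2g1, Cyp2f2 and Cyp2e1 were past 2-fold, all towards the bulge. Cyp2b13, Cyp2b9 and Cyp2a12 were at background.

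Probe sets of the same gene read the same RNA sample on each array, so they are not replicates of a structure. Of 10 member genes with at least 2 probe sets above the floor, 7 had the same sign in all of them. This count leaves out probe sets at background on both arrays, which Cyp1b1, Gstm1 and Akr1b10 each also have. Mgst1, Mgst3 and Akr1cl, all higher in the bulge, did not enter it because their other probe set was at background. Akr1a1 and Akr1e1, which were under 2-fold apart, held both signs, and Akr1b10 had a probe set equal on both arrays to within 0.01. Sizes were less stable than signs. Gsta3 gave log2 differences of 3.90 and 0.34, Akr1b10 1.91 and 0.00, Gstm1 from 0.98 to 2.26, while Gsto1 gave -1.67 and -1.31. Of the 24 member genes at least 2-fold apart, 20 stayed so in every one of the 9 alternatives that gave them a value, and Akr1b10, Akr1cl, Cyp2d22 and Gstp3 did not.

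**Figure D5:**
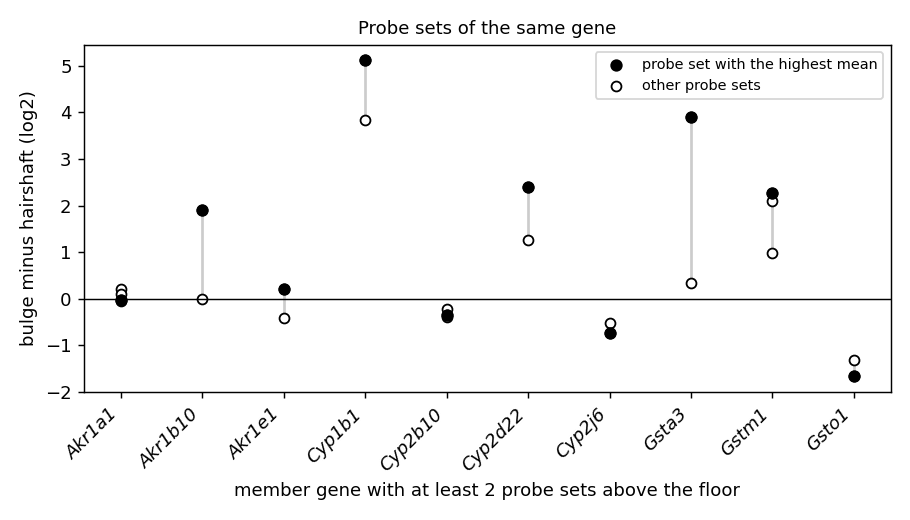
Difference between the arrays (bulge minus hairshaft, log2; vertical axis) for each probe set above the floor of the 10 member genes that have at least 2. Filled circles are the probe set with the highest mean, which stands for the gene elsewhere, and open circles the others. Akr1a1 and Akr1e1 hold both signs, and Akr1b10 has a probe set equal on both arrays to within 0.01. Gsta3 and Akr1b10 spread furthest.

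Of the 46 members above the floor, 5 (Cyp2d10, Cyp2j11, Gstm4, Gstm6 and Ugt3a2) had values within 0.01 on both arrays, against a background of 10.5% over 13329 genes, and 75 of the 80 receptor probe sets were equal in the same way. Whether such equal values hold any signal was not tested. Without these 5 genes the median over members above the floor was 1.46. Leaving out equal values in the same way over all genes above the floor gave a median of -0.02 (11930 genes).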

How the data were processed

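The authors deposited log2 probe-set values from GCRMA, per the submitters' processing notes; version and settings: not given in the sources used here. Values from 2.23 to 15.36 fit the log2 scale. Sorted columns differed by at most 0.19, so no further scaling was applied. The table had 45101 probe sets. A platform annotation gave 34958 a single symbol, 932 several and left 9211 unnamed here; 34754 symbols were updated through RefSeq (GRCm38.p6), which changed no member's name. For each gene the probe set brightest on average over both arrays was used. The floor was the 95th percentile of 80 receptor probe sets. With 1 array per group no test, p-value or SD is given; genes were counted at 2-fold and 8-fold. Arrays have no depth; their number limits the precision. Counting was tested on simulated data. The members and lists were chosen with earlier results of these data known. Every member above the floor may be named, and up to 4 genes of each list by size of difference; others named were chosen after their values were seen. There were 9 alternatives: a stricter floor (99th percentile) or the array median as floor, none, the probe-set mean, plain probe sets only (no _x_at, _s_at or _a_at), an offset of 16, a loess trend removed (span 0.3), the median difference removed, and quantile normalization. 0 columns were unmatched. Listed genes without a single-symbol probe set were not analysed here. Software was statsmodels 0.14.6, matplotlib 3.10.9, numpy 2.4.6 and pandas 2.3.3 under Python 3.11.15.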

Additional observations from a re-analysis of the deposited data

How the results depend on the processing

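The count of members past 2-fold towards the bulge, 21, ranged from 16 (plain probe sets only) to 24 (each probe set counted, chosen after seeing the data), and that towards the hairshaft, 3, from 2 to 4. Differences were more open to the settings. The aldo-keto reductase median of 1.68 became 0.72 under the 99th percentile floor, 1.06 with the array median as floor, 0.17 with no floor, 0.57 for the probe-set mean and 0.76 for the offset of 16. The median of the cytosolic and kappa glutathione transferases, 1.13, became 0.52 with no floor, where genes at background enter. The median over members above the floor, 0.52, became 1.46 without genes equal on both arrays, an alternative chosen after seeing the data. Among the 46 genes, 14 had a difference that shifted by over 1.5-fold under 1 or more of the 9 alternatives, in each case to a smaller difference (34 of 392 values), and 0 differences of at least 2-fold changed sign. Plain probe sets left 8 genes without a value above the floor, among them Cyp1a1, Cyp2f2, Gsta2, Gstp1, Gstz1 and Mgst1. For the other lists, 1 of 72 medians moved by over 1.5-fold and 10 of 72 counts in the bulge by over 1.5 times. Leaving out a replicate was not possible. No paired analysis was possible because each structure has 1 array. Signal near the floor limits every difference written "at least".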

Other observations

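Members of the Ugt1 locus share their last exons, and 3 probe sets assigned to all 8 of its listed genes were bright on both arrays and higher in the bulge. The first read 11.84 and 10.40 (bulge, then hairshaft; 2.71-fold), the second 10.14 and 8.74 (2.63-fold) and the last 9.92 and 8.83 (2.13-fold). Of the other 5 probe sets shared by several genes of these families, one assigned to Akr1c12 and Akr1c13 together had 6.21 and 3.30 (7.54-fold higher in the bulge). Another, assigned to 3 alpha-class genes, had 8.25 and 9.64 (2.61-fold higher in the hairshaft), the direction of the single-gene Gsta2 probe set. The remaining 3 read the same on both arrays, at 2.24 to 2.71.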
